A study of Mus musculus with 12 samples.

Results

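The libraries described here are the 6 that were made from mouse bone marrow neutrophils kept with granulocyte colony-stimulating factor (G-CSF), out of 12 in the series. They were taken by genotype label and treatment: 3 libraries labelled Socs3 fl/fl, called floxed below, and 3 labelled LysMCre Socs3fl/fl, called LysMcre-labelled. The 6 other libraries are of the same 2 genotypes without G-CSF. Marrow came from mouse femurs, cells positive for CD11b and Ly6G were sorted, and all cells spent 8 h in medium with serum, with or without 10 ng/ml mouse recombinant G-CSF. The floxed label means that Socs3 is flanked by loxP sites in both groups. LysMcre is a Cre recombinase placed in the lysozyme 2 gene, Lyz2, which is active in monocytes and macrophages as well as neutrophils. The floxed label names no Cre, so the effect of the Cre insertion and of Socs3 deletion cannot be told apart in these groups. Titles of the 3 LysMcre-labelled libraries with G-CSF also carry the word untreated; their description, condition and genotype fields name the Socs3 knockout and G-CSF, and the libraries were placed by their description. The sources used here give neither strain nor sex nor age of the mice. They also do not state whether a group's 3 libraries are 3 mice or repeats of 1 preparation, so each p-value is set against library-to-library spread, possibly technical.

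G-CSF is the main cytokine of granulocyte production. It binds a homodimeric receptor, encoded by Csf3r, that activates the kinases JAK1 and JAK2 and then the transcription factors STAT3 and STAT5, which enter the nucleus and bind a palindromic DNA element. SOCS3 is made in answer to STAT3, binds the activated receptor and JAK kinases, and stops the signal, so the pathway limits itself. Neutrophils lacking SOCS3 are known for a prolonged STAT3 response to G-CSF.

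The element bound by STAT factors has the letters TTCNNNGAA, AP-1 factors bind TGANTCA, and C/EBP factors bind sequences like TTGCNNAA. The first and the second of these read the same on both strands, and TTGCNNAA was searched on both. In the 250 bases before the start of each of 32851 mouse RefSeq promoters (build GRCm38.p6), 7.0% held the STAT letters, 6.7% the AP-1 letters and 9.6% the C/EBP letters. Of the tested genes 9538 of 13915 (68.5%) had a promoter in the table, which is too few to compare gene sets. The stretches below belong to the feedback gene Socs3, to Rhoq, one of the genes with the largest difference upward, and to 2 oxidase genes that were lower, Ncf1 and Cybb. They are shown because each holds a match, in capitals, and because these genes stand for both directions of the comparison. Each runs 5′ to 3′ on the gene's strand and stops before any annotated exon. The Cybb stretch lies before the RefSeq start but inside the annotated span of the gene. Socs3 (chr11:117969452-117969616, minus strand, STAT match beginning 154 bases before the start), Rhoq (chr17:86962861-86963081, plus strand, C/EBP match at 244 and STAT match at 210 bases), Ncf1 (chr5:134229626-134229875, minus strand, STAT match at 88 bases) and Cybb (chrX:9469325-9469574, minus strand, AP-1 match at 139 bases) read:
Socs3: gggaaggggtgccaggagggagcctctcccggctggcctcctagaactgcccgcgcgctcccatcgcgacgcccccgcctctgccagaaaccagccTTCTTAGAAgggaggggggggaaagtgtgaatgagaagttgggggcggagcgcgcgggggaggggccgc
Rhoq: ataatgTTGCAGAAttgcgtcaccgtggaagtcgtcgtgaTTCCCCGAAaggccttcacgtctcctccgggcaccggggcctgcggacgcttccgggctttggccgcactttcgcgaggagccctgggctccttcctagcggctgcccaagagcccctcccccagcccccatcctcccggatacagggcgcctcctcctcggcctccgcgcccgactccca
Ncf1: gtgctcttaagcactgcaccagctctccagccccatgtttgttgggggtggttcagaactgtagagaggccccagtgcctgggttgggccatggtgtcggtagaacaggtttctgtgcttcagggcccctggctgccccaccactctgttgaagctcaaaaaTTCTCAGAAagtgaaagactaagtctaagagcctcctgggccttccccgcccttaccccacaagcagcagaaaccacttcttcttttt
Cybb: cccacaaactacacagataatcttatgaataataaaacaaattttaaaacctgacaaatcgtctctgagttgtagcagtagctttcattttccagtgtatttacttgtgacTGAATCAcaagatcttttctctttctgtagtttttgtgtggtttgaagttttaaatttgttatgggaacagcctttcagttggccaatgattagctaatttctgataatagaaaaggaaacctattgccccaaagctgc
A match is a run of letters and not a measured binding site. STAT letters stood before a gene that was higher and before a gene that was lower.

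Socs3 was not lower in the LysMcre-labelled libraries. Its level was 21391, 18533 and 18588 normalized counts in the 3 floxed libraries with G-CSF and 35984, 37668 and 38354 in the 3 LysMcre-labelled ones. The groups did not overlap, and the difference was 1.92-fold upward (log2 0.94, SE 0.09, limma adjusted p = 1.06e-06). Normalized counts are the deposited values, in which each library was scaled by its own size factor. Log2 differences are LysMcre-labelled minus floxed, on log2(normalized count + 1), which understates the change of low genes. The limma fit took 1 spread per gene over all 4 groups, so the untreated libraries also enter each SE and p-value. Reads were summed over the whole gene, so a full transcript and one without the floxed part cannot be told apart, and the genotype is called by its label throughout. Lyz2 (chromosome 10, 117277331 to 117282321) did separate the labels. It stood at 44425, 49035 and 45220 normalized counts in floxed and at 507.4, 563.8 and 636.7 in LysMcre-labelled libraries, 81.3-fold lower. Its neighbour and near copy Lyz1 stood at 427.9, 454.4 and 479.2 against 115.6, 42.46 and 31.13, and since reads of one can be counted for the other its value is uncertain. Of the 40 other genes tested within 5 Mb of Lyz2, 4 were higher and 10 lower (35% called), and of the 163 around Socs3, 32 were higher and 36 lower (41.7%); over all genes the share was 36.0%.

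With G-CSF the genotypes differed across much of the transcriptome, mostly by small amounts. Of 13915 genes tested, 5013 passed an adjusted p of 0.05 (36.0%), 2379 higher (17.1%) and 2634 lower (18.9%) in the LysMcre-labelled libraries. A total of 830 of them (5.96%) differed at least 2-fold, 417 upward and 413 downward. At 4-fold the balance was 87 upward to 43 downward. Under 1.5-fold lay 2950 of the calls, 58.8%. Without regard to the test, the 3 and 3 libraries did not overlap for 6338 genes (45.5%). Most genes named below were picked for a large difference, so separation of their groups follows in part from that choice. The share called grew with the level, from 14% of genes with a mean of 10 to 50 normalized counts in the G-CSF libraries to 70.6% in the most abundant of 5 level classes, so a count of calls in a list of abundant genes is not comparable with one in a list of rare genes. Calls in each list below stand beside the 36.0% of all genes called, and a share near it says nothing particular about the list. Depth was 20977739 to 26472118 recovered reads in these 6 libraries, and 3 reads were worth 2.63 to 3.54 normalized counts.

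**Figure D1:**
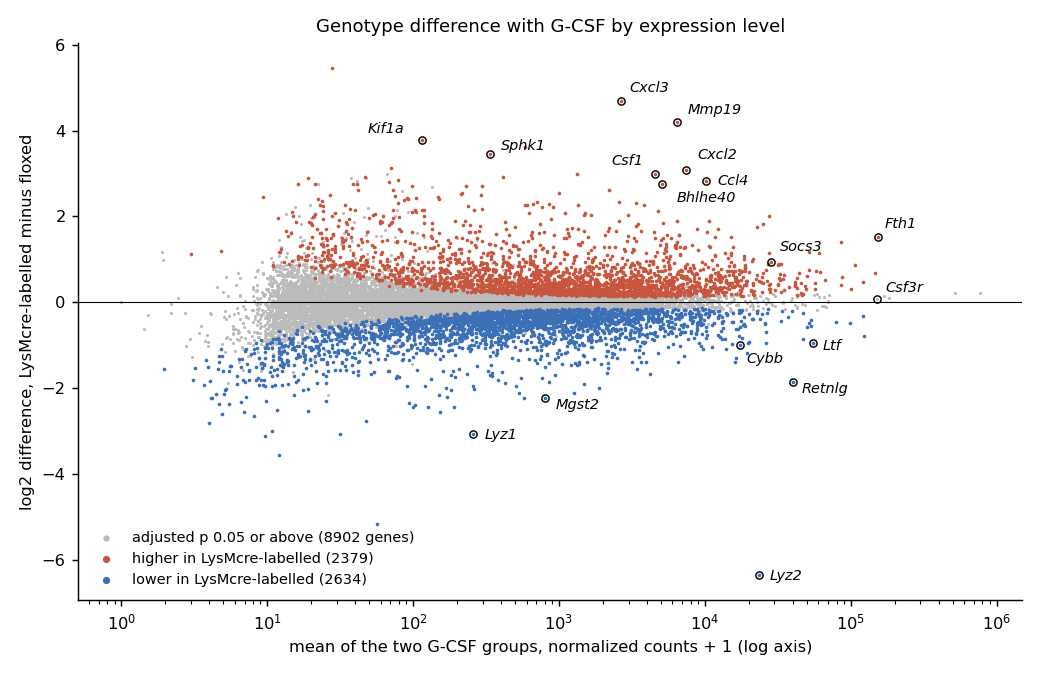
Mean of the 6 libraries with G-CSF in normalized counts plus 1 (log axis) against the log2 difference, LysMcre-labelled minus floxed, for 13915 genes. Red points are the 2379 genes that were higher and blue points the 2634 that were lower at an adjusted p of 0.05. Lyz2 lies alone at -6.35. Cxcl3 lies at 4.70, below the largest difference upward of any gene tested, 5.46.

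Scaling mattered to the balance of directions. With every library brought to an equal total, the median difference of all genes moved from -0.01 to -0.13. Upward calls then made up 28.2% of all calls, compared with 47.5% as deposited and 45.3% after quantile normalization. List medians between 0 and 0.12 turned negative at equal totals and are given no direction. Of the genes named here 47 share exon bases with another gene in the table; whether the counting used strand is not given in the sources used here, and reads in shared bases cannot be assigned to one of the pair.

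The 12 genes with the largest rise were taken among called genes whose groups did not overlap, and they included 4 chemokine and growth factor genes. Cxcl3 (chromosome 5, 90786103 to 90789600), a chemokine that attracts neutrophils, stood at 175.5, 178.6 and 233.5 normalized counts in floxed and at 4291, 5708 and 5303 in LysMcre-labelled libraries (log2 difference 4.70, SE 0.18, adjusted p = 1.87e-10). Its neighbour Cxcl2 (chromosome 5, 90903871 to 90905938) stood at 1479, 1302 and 1954 against 11583, 15168 and 13263 (log2 3.09, SE 0.19). For both chemokines, picked for a large difference without overlap, the lowest LysMcre-labelled library lay several-fold above the highest floxed one. Mmp19 (chromosome 10, 128790910 to 128800824), a matrix metalloproteinase, stood at 569.8, 664.5 and 755.1 against 11443, 12437 and 12733, an 18.5-fold difference. Csf1 (chromosome 3, 107741048 to 107760469), the growth factor of macrophages, stood at 971.7, 747.7 and 1324 against 6676, 7258 and 10244, an 8.01-fold difference. Ccl4, which attracts monocytes and T cells, stood at 2491, 2469 and 2645 against 18411, 17615 and 17760, and the 3 libraries of each group lay close together.

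The others of these 12 encoded proteins of several kinds. Kif1a, a kinesin that carries vesicles along microtubules, went from 15.17, 16.64 and 12.24 in floxed to 225.4, 204 and 209.4 in LysMcre-labelled libraries. Ppm1j, a phosphatase of the PP2C family, stood at 88.83, 88.43 and 84.74 against 1051, 1079 and 1119. Fam19a3, whose annotated span overlaps that of Ppm1j on the opposite strand and which encodes a secreted chemokine-like protein, stood at 10.83, 10.51 and 7.532 against 72.81, 63.69 and 75.15. Rhoq, a small GTPase, stood at 270.8, 302.9 and 310.7 against 2330, 2357 and 2393, 7.99-fold higher (SE 0.13 on the log2 scale). Nab2, a corepressor of the EGR transcription factors, stood at 82.33, 101.6 and 101.7 against 653, 690 and 865.3. Pla1a, a secreted phospholipase that acts on phosphatidylserine, stood at 10.83, 12.26 and 16.95 against 95.93, 113.2 and 170.7.

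The largest falls were a more mixed set. Lhx1, a homeobox factor, stood at 173.3, 187.4 and 142.2 normalized counts in floxed and at 26.58, 29.49 and 33.28 in LysMcre-labelled libraries (adjusted p = 4.46e-09), and Dnah6, a dynein heavy chain of cilia, at 187.4, 167.2 and 157.2 against 36.98, 23.59 and 36.5. Without G-CSF the genotypes overlapped for both: Lhx1 stood at 704.7 to 997.1 over the 6 untreated libraries and Dnah6 at 353.9 to 500.9. A pair of members of the interferon-induced IFIT family were lower, Ifit1bl2 with 982.6, 971 and 904.8 against 243.9, 176.9 and 191.1, and Ifit3b with 386.7, 206.6 and 253.3 against 58.94, 51.9 and 64.42; reads of Ifit3b can be shared with its near copy Ifit3. Amica1, a junctional adhesion molecule of leukocytes, stood at 2088, 2207 and 1890 against 494.7, 425.8 and 516.4. Chil5, a chitinase-like protein, was 4.07-fold lower and Arhgef4, a guanine nucleotide exchange factor, 4.15-fold lower. Adgrg5, an adhesion receptor, was 5.07-fold lower with a large SE of 0.70, and LysMcre-labelled replicate 3, at 71.93, stood apart from the others at 18.49 and 17.69. Without LysMcre-labelled replicate 1 or 2 Adgrg5 no longer passed (log2 -2.04 and -2.01), nor did it with DESeq2 or a prior without a trend.

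The next genes had the 8 largest gains and 8 largest losses in normalized counts, which also grow with transcript length, among called genes whose groups did not overlap. Fth1 (chromosome 19, 9980598 to 9985098), the heavy chain of the iron store ferritin, stood at 80160, 83428 and 74555 in floxed and at 229139, 221028 and 230142 in LysMcre-labelled libraries. Srgn, the proteoglycan that packs granule contents, stood at 45619, 50791 and 44761 against 124567, 119092 and 127803. Il4ra, a chain of the interleukin 4 and 13 receptors, was 2.20-fold higher, Hdc, which makes histamine, 2.26-fold, Ifitm1 1.82-fold, the inhibitory receptor gene Lilrb4a 1.6-fold, Pkm, pyruvate kinase, 1.5-fold and Slfn4 1.40-fold. The call for Slfn4 was lost at equal totals (log2 0.36), after quantile normalization, with DESeq2 and with a prior without a trend. It was also lost without any of 4 single libraries, floxed replicate 2 or 3 and LysMcre-labelled replicate 2 or 3 (limma adjusted p up to 0.166 over the alternatives). Lilrb4a and Slfn4 have close relatives with which reads can be exchanged. On the other side, Ngp, a secondary granule protein, stood at 173932, 159228 and 137937 against 106490, 79541 and 86366. Retnlg (chromosome 16, 48872621 to 48874496), a resistin-like secreted protein of neutrophils, stood at 62770, 68896 and 56918 against 17703, 16562 and 17382, 3.64-fold lower. Lactoferrin (Ltf) was 1.93-fold, annexin A1 (Anxa1) 1.80-fold, lipocalin 2 (Lcn2) 1.40-fold, filamin A (Flna) 1.38-fold and gelatinase B (Mmp9) lower by less (log2 -0.32). Mmp9 no longer passed without floxed replicate 1 or 2 or LysMcre-labelled replicate 1 (log2 -0.25, -0.31 and -0.27). It also did not pass in the 6 libraries with G-CSF alone. Lyz2 was the other of the 8 losses.

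**Figure D2:**
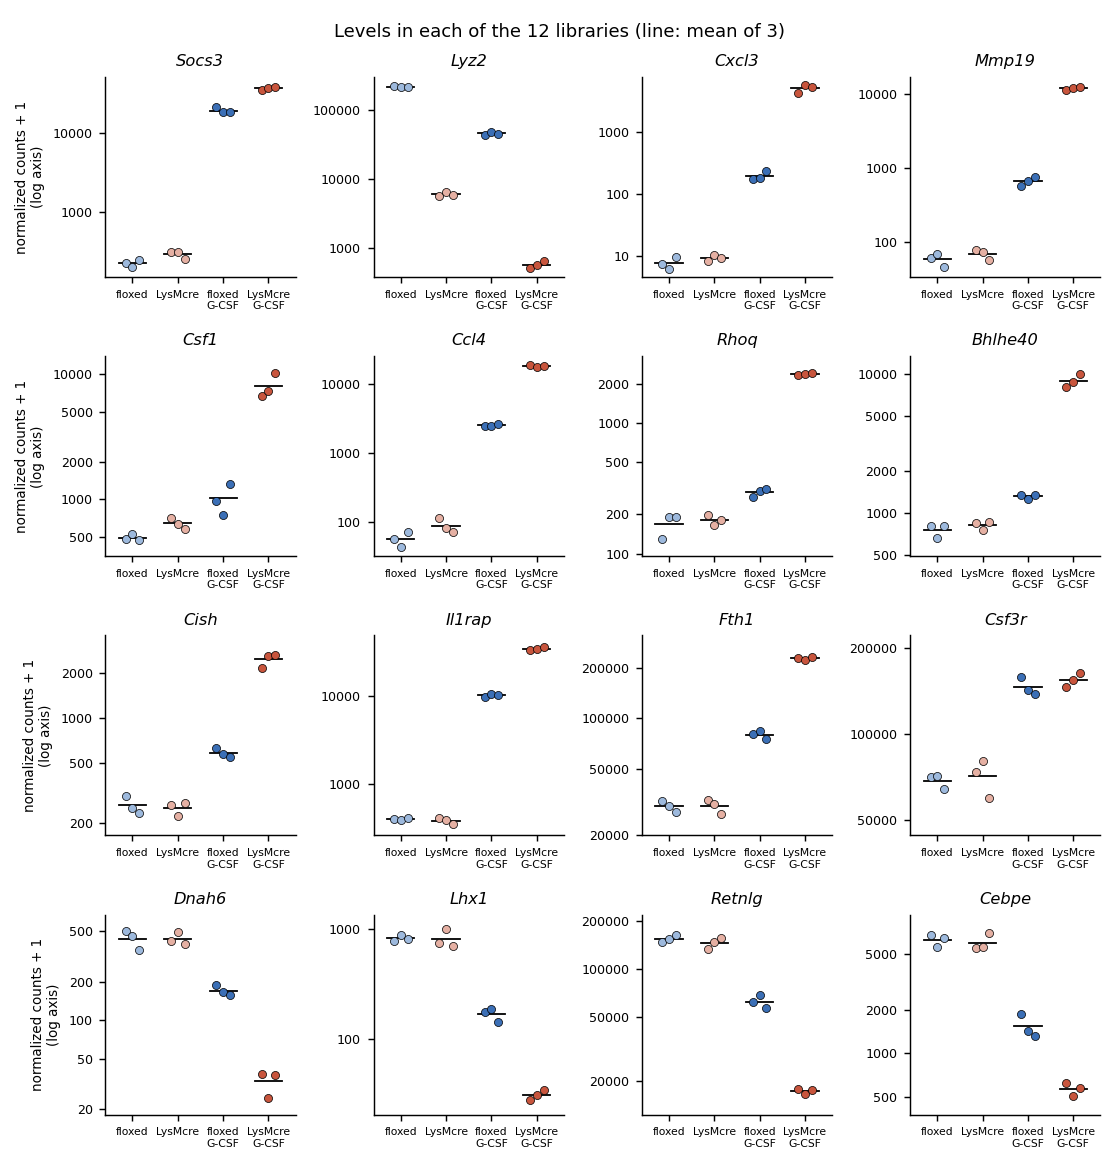
Level of 16 genes in each of the 12 libraries, in normalized counts plus 1 on log axes; points are libraries and lines are means of 3. Socs3 with G-CSF reaches 35984 to 38354 in the LysMcre-labelled libraries against 18533 to 21391 in floxed ones, while Csf3r overlaps between the genotypes.

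The G-CSF receptor itself did not pass, and several kinases and STAT factors behind it did. Csf3r stood at 158921, 142904 and 138807 normalized counts in floxed and at 146930, 154686 and 164192 in LysMcre-labelled libraries, and the ranges overlapped (log2 0.08, SE 0.10, adjusted p = 0.59). Jak2, the kinase that phosphorylates this receptor, stood at 3541, 3360 and 3565 against 6706, 6883 and 7144, 1.98-fold higher with groups far apart. Jak3 was 1.46-fold and Jak1 1.17-fold higher, and Tyk2 did not pass (log2 -0.11). Stat5a stood at 889.4, 851.9 and 865.3 against 1670, 1736 and 1499, 1.88-fold higher. Stat3 stood at 22773, 20829 and 19856 against 27895, 28869 and 29109, 1.36-fold higher; the ends of Stat3 and Stat5a share bases on opposite strands. Stat2 was 1.23-fold higher, and Stat4, used by interleukin 12, was 1.61-fold lower. Stat2 lost its call without any of 5 single libraries with G-CSF (all but floxed replicate 1) and at equal totals (0.18). It also lost its call with a prior without a trend, and both Stat2 and Jak1 did after quantile normalization. Stat5b, with a log2 difference of -0.02, and Stat6, with 0.14, did not pass. Of the 11 JAK and STAT genes 6 were higher and 2 lower (5 and 4 at equal totals), with a median of 0.23 against -0.01 for all genes tested.

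Of 18 genes for SOCS proteins and other brakes of cytokine signalling 6 were higher and 1 lower (5 and 3 at equal totals), a share called that is near the 36.0% of all genes. Cish, the SOCS-family member induced by STAT5, stood at 630.5, 571.7 and 549.9 normalized counts in floxed and at 2155, 2588 and 2624 in LysMcre-labelled libraries, 4.19-fold higher (adjusted p = 2.39e-09). Socs1 stood at 144.1, 134.8 and 130.9 against 360.6, 356.2 and 367.2, 2.64-fold higher. In both genes all LysMcre-labelled libraries lay above all floxed ones. The phosphatases that act on JAK kinases and STAT factors followed, Ptpn2 at 1.75-fold, Ptpn1 at 1.65-fold and Ptpn6 at 1.28-fold. The libraries of Ptpn6 overlapped, and it lost its call at equal totals (log2 0.23), after quantile normalization and with a prior without a trend. The call was also lost without floxed replicate 2 or 3 or LysMcre-labelled replicate 3 (0.32, 0.32 and 0.20). Pias3, an inhibitor of STAT3, was 1.27-fold lower. Socs2, Socs4, Socs5, Socs6 and Socs7 did not pass, with log2 differences from 0.05 to 0.32.

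Phosphatases and Sprouty-type proteins that end MAP kinase signalling showed a similar split. Dusp5, which acts on nuclear ERK, stood at 563.3, 557.7 and 584.7 against 1699, 1933 and 2089, and Dusp16, which acts on JNK and p38, at 729.1, 686.4 and 710.9 against 2008, 2427 and 2375. Both were over 3-fold higher without overlap. Spry2 was 2.20-fold, Spred1 1.93-fold and Dusp1 1.74-fold higher. Dusp7 was 1.85-fold lower, and Dusp6, a marker of ERK activity, did not pass (269.7, 200.5 and 247.6 against 232.3, 261.8 and 275.9; adjusted p = 0.563). Of 14 measured genes 7 were higher and 1 lower.

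Of 28 cytokine receptor chains 20 were higher and 2 lower, with a median of 0.55. The interleukin 1 axis had the largest of these: Il1rap, the accessory chain needed for interleukin 1, 33 and 36 signalling, stood at 9910, 10542 and 10407 normalized counts in floxed and at 33468, 34942 and 36412 in LysMcre-labelled libraries. Il1r2, the decoy receptor that binds interleukin 1 without signalling, stood at 5664, 5947 and 5689 against 16133, 19199 and 21259. Il1rn, the secreted receptor antagonist, stood at 3246, 3354 and 3390 against 10068, 9415 and 10405, 2.99-fold higher. For none of the 3 genes did the groups overlap. The cytokine Il1b stood at 13550, 13695 and 14874 against 18526, 21415 and 19798; these groups did not overlap either, but it missed the threshold (adjusted p = 0.0504). Il21r was 2.98-fold higher, Il10ra 1.97-fold, Il6ra 1.55-fold, the shared chain Csf2rb of the GM-CSF, interleukin 3 and interleukin 5 receptors 1.45-fold and Csf2ra 1.32-fold; Csf2rb and its near copy Csf2rb2 can exchange reads. Il15ra was 1.79-fold and Lifr 1.55-fold lower. Inflammasome genes moved in both directions: Mefv, Casp4 and Nlrp12 were higher, with log2 differences of 0.89, 0.63 and 0.52, and Nlrp3, Aim2 and Nek7 lower, at -0.44, -0.47 and -0.59. Of the 19 interleukin 1 and inflammasome genes 6 were higher and 5 lower. The counts were 8 and 4 in the 6 libraries with G-CSF alone, 8 and 5 with edgeR, and 6 and 6 at equal totals.

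Transcription factors of the granulocyte lineage were divided. Cebpb (chromosome 2, 167688915 to 167690418), the C/EBP factor of emergency granulopoiesis, stood at 15747, 14716 and 12123 in floxed and at 26498, 29191 and 30141 in LysMcre-labelled libraries, 2.02-fold higher. Cebpe (chromosome 14, 54710360 to 54712174), the factor needed for secondary granule genes, stood at 1888, 1431 and 1321 against 624.1, 503.6 and 571.2, 2.71-fold lower. Neither pair of groups overlapped. Cebpa was 1.40-fold lower, and Cebpd (log2 0.07) and Spi1 (0.07), the gene of PU.1, did not pass. Id1, an inhibitor of helix-loop-helix factors, was 3.30-fold higher, while its relative Id2 was lower with a log2 difference of -0.49. Bcl6 and Klf4 were lower at -0.66 and -0.73, and Nfil3 and Rara higher at 0.78 and 0.77. Of the 24 genes of the list 7 were higher and 8 lower.

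Of 13 AP-1 factors 10 were higher and 1 lower, with a median of 0.72. Maff, a small basic leucine zipper partner of AP-1 factors, stood at 111.6, 91.06 and 90.39 against 335.2, 345.6 and 339.3. Junb stood at 23634, 22460 and 21486 against 38586, 42149 and 42982, and Fosl2 at 20517, 19246 and 18513 against 30899, 33761 and 34307. All 3 separated the groups. Fos, Batf and Jun were 2.00-fold, 1.93-fold and 1.59-fold higher; Mafg was lower (log2 -0.34). In the Myc network, Pim1, a survival kinase gene downstream of STAT factors, was 1.51-fold higher and Myc 1.33-fold (not passed at equal totals, log2 0.29, or without floxed replicate 1 or 2 or LysMcre-labelled replicate 1 or 2), whereas the Myc partner Max was 1.73-fold and the antagonist Mxi1 1.54-fold lower. Of the 17 clock genes 4 were higher and 2 lower, near the 36.0% of all genes called, and none was lower by edgeR, DESeq2 or the 6 libraries with G-CSF alone. Bhlhe40 (chromosome 6, 108660629 to 108666925), a repressor that ties the clock to immune responses, stood at 1351, 1256 and 1344 against 7995, 8720 and 9914, 6.71-fold higher (SE 0.09 on the log2 scale), and Arntl and Clock, the core activators, did not pass at -0.04 and 0.13. Nfatc1, a calcium-regulated factor, was 1.78-fold higher with G-CSF, as it also was without (2296 against 4535 normalized counts on average), and the calcineurin subunit Ppp3ca was 1.63-fold lower.

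Of 21 receptors for attractants 8 were higher and 1 lower (7 and 2 at equal totals), and 12 did not pass, beside 36.0% of all genes called. Cxcr2, the receptor of Cxcl2 and Cxcl3, stood at 76728, 73243 and 72136 normalized counts in floxed and at 100426, 94864 and 99038 in LysMcre-labelled libraries, 1.33-fold higher but not after quantile normalization (adjusted p = 0.335), and Cxcr1 was 1.71-fold higher. Cxcr4, which holds neutrophils in the marrow, stood at 2238, 2076 and 2219 against 1481, 1451 and 1603, 1.44-fold lower. None of these groups overlapped. The formyl peptide receptors Fpr1 (log2 0.10) and Fpr2 (0.01) and the complement receptor C5ar1 (0.16) did not pass.

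Sensors of microbes changed in both directions. Cd14, the lipopolysaccharide coreceptor, stood at 4390, 4589 and 4602 against 13440, 17248 and 20267, 3.70-fold higher, with Tlr1 2.12-fold and Tlr4 1.89-fold higher. Tlr5, the flagellin receptor, stood at 559, 534.9 and 548.9 against 260, 267.7 and 322.1, 1.94-fold lower, and Tlr8 was 1.43-fold lower. Every one of these separated the groups. Of the 22 Toll-like receptors and adaptors 9 were higher and 4 lower. Among lectins, Clec4n, the receptor Dectin-2 of fungal mannans, stood at 536.2, 553.3 and 792.8 against 4051, 3493 and 3840, 6.13-fold higher. Clec12a, an inhibitory lectin, stood at 2112, 1957 and 1932 against 796.3, 707.7 and 718.2, 2.70-fold lower, and the inhibitory Clec4a2 was 2.04-fold lower. Among Fc receptors the inhibitory Fcgr2b was higher by 0.82 and the activating Fcgr3 by 0.50 on the log2 scale, and related Fc receptor genes can exchange reads.

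Adhesion and costimulation genes did not move as one. Itga1 and Pecam1 were higher, at 2.28-fold and 1.89-fold. Ceacam10 stood at 1901, 1860 and 1524 against 720, 544.9 and 677.4 and was 2.72-fold lower; Ceacam1 was 2.05-fold lower, and the family's similar genes can exchange reads. Of 27 adhesion genes 11 were higher and 8 lower. The checkpoint ligand Cd274 (PD-L1) stood at 432.2, 316.1 and 496.2 against 983.5, 1005 and 886.8, and the costimulator Cd80 at 108.3, 115.6 and 153.5 against 298.2, 344.4 and 385.4. Both were over 2-fold higher without overlap. The antigen-processing genes that passed were lower: Psmb9, a subunit of the immunoproteasome, stood at 1496, 1234 and 1186 against 784.8, 815 and 779.4, the nonclassical H2-T23 was 1.48-fold lower, Tap2 1.33-fold and Psmb8 1.29-fold. The class I genes H2-K1 (log2 0.12) and H2-D1 (0.01) did not pass. Of the 26 genes of this list 3 were higher, Cd86 (log2 0.69) being the other one, and 4 lower, against 2 and 8 at equal totals; Cd86 lost its call at equal totals and without floxed replicate 1 or LysMcre-labelled replicate 2 or 3 (adjusted p up to 0.0968).

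In the TNF superfamily 10 of 25 measured genes were higher and 3 lower. Tnfrsf26 stood at 281.7, 347.6 and 348.4 in floxed and at 1416, 1488 and 1607 in LysMcre-labelled libraries, and Tnfrsf23, a decoy receptor for TRAIL beside it in a cluster of similar genes, at 651.1, 633 and 646.8 against 2424, 2577 and 2944. These receptors separated the groups widely, although similar sequence leaves their split uncertain. The ligands Tnfsf9 (4-1BBL) and Tnfsf14 (LIGHT) were 3.10-fold and 1.98-fold higher, and Ltb, lymphotoxin beta, 1.64-fold lower. Tnf itself stood at 863.4, 653.1 and 863.4 against 729.3, 994.3 and 921.2 and overlapped (adjusted p = 0.378).

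Of the 19 chemokine ligands measured, 6 were higher and 3 lower, beside 36.0% of all genes called. Besides Cxcl3, Cxcl2 and Ccl4, Ccl3 stood at 449.6, 387.9 and 564.9 against 1572, 1269 and 1336 without overlap, and Ccl9 (log2 0.84) was higher, as was the low Cxcl1 (1.34), whose call was lost without any 1 of the 6 libraries with G-CSF (1.22 to 1.47). Cklf and Ccl25 were lower at -0.30 and -0.69, and Ccl6 at -0.28 (lost without floxed replicate 2 or LysMcre-labelled replicate 2, adjusted p up to 0.0794). Among growth factors and regulatory cytokines, oncostatin M (Osm) was 1.65-fold higher and Il27 and Nampt were higher by 0.80 and 0.65 on the log2 scale. Il16 stood at 3298, 3213 and 3059 against 1413, 1611 and 1820, 1.98-fold lower, and progranulin (Grn) and Hgf were lower at -0.73 each. Vegfa (-0.01) did not pass.

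Genes listed as metalloproteinases, sheddases and their inhibitors or relatives changed in both directions, 8 of 19 higher and 7 lower (5 and 7 after quantile normalization). Beside Mmp19, Adam9, a membrane sheddase, stood at 1735, 1821 and 1882 in floxed and at 4921, 4980 and 4763 in LysMcre-labelled libraries, and Adamtsl4 was 3.00-fold higher. Collagenase 2 (Mmp8) stood at 64800, 66737 and 59771 against 45441, 41621 and 42347, 1.48-fold lower, beside gelatinases Mmp9 (log2 -0.32) and Mmp2 (2.0-fold) that were lower. All of these separated the groups. Among protease inhibitors 4 of 23 were higher and 4 lower, near the 36.0% of all genes called. Spint1, an inhibitor of membrane serine proteases, stood at 112.7, 109.4 and 96.04 against 499.3, 521.3 and 429.4 (SE 0.63 on the log2 scale, adjusted p = 0.0132), Cstb, a cathepsin inhibitor, was 1.97-fold higher and Spint2 1.71-fold lower.

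The oxidase that makes superoxide in phagocytes was lower in several subunits. Cybb (chromosome X, 9435252 to 9487771), its catalytic subunit, stood at 24725, 22318 and 21967 normalized counts in floxed and at 12919, 10568 and 11330 in LysMcre-labelled libraries, 1.99-fold lower. Ncf1 (p47phox), the organizer of the cytosolic complex, stood at 36226, 30907 and 30589 against 17430, 20094 and 22945, 1.62-fold lower. The groups did not overlap for either. Hvcn1, the proton channel that balances the charge, was 1.49-fold and Ncf4 (p40phox) 1.27-fold lower, and both separated the groups. Cyba, the membrane partner of Cybb, overlapped between groups and did not pass (log2 -0.17). The small GTPase Rac2 was 1.16-fold lower with overlapping libraries, a call lost under 11 of 22 alternatives (adjusted p up to 0.146), among them without floxed replicate 1 or 2 or LysMcre-labelled replicate 1 or 2. Rac1 was 1.19-fold higher except at equal totals and after quantile normalization (adjusted p up to 0.156), and BC017643, a chaperone of the complex, 1.18-fold higher. In all 5 of 9 genes were lower and 2 higher (7 and 1 at equal totals).

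Genes that turn extracellular ATP into adenosine, and receptors of both, were higher in 11 of 22 and lower in 3, with a median of 0.55. Entpd1 (CD39), which removes phosphates from ATP, stood at 9343, 9442 and 8505 normalized counts in floxed and at 20234, 21775 and 24699 in LysMcre-labelled libraries. Entpd3, a related enzyme, stood at 8375, 7336 and 7578 against 19858, 22183 and 25235. Nt5e (CD73), which makes adenosine from AMP, stood at 1173, 1157 and 1135 against 4031, 4279 and 6074, 4.08-fold higher (adjusted p = 4.38e-09). For all 3 enzymes the groups lay far apart. Nt5e differs from the other 2 in that floxed libraries with G-CSF were below the untreated mean of 2459, while LysMcre-labelled ones were above it.

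Receptors of adenosine and nucleotides on the same list changed in both directions. Adora2b stood at 45.5, 64.79 and 76.26 against 273.9, 409.3 and 416.6, 5.84-fold higher, and Adora3, which neutrophils use in chemotaxis, at 1113, 1061 and 964.1 against 3505, 3046 and 3338, 3.15-fold higher. The related receptor gene Adora2a did not pass (log2 0.12). P2ry14, a receptor of UDP-glucose, was 4.29-fold, the ADP receptor P2ry13 2.32-fold and the ATP receptor P2ry2 1.82-fold higher. Ada, which breaks adenosine down, stood at 457.2, 345.8 and 322.9 against 261.2, 195.8 and 202.9, 1.70-fold lower. The ADP receptor P2ry1 and the ATP channel P2rx1 were 1.46-fold and 1.68-fold lower.

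Several enzymes from arachidonic acid to leukotrienes were lower. Alox5, the lipoxygenase that starts this path, stood at 10081, 9010 and 8142 normalized counts in floxed and at 5743, 5943 and 6709 in LysMcre-labelled libraries, 1.48-fold lower. Lta4h, which makes leukotriene B4, stood at 5626, 4850 and 4672 against 2810, 2464 and 2605, 1.92-fold lower. Mgst2, a glutathione transferase that can make leukotriene C4, stood at 1452, 1277 and 1247 against 342.1, 219.4 and 294.2, 4.70-fold lower. Cyp4f18, which inactivates leukotriene B4 by hydroxylation, stood at 5643, 5411 and 4800 against 1898, 1897 and 2198, 2.65-fold lower. None of these 4 overlapped. Alox5ap, the protein that presents the substrate to Alox5, did not pass (log2 0.16, adjusted p = 0.0926), and the leukotriene B4 receptor Ltb4r1 was 1.43-fold higher. On the prostaglandin side Ptgs2 (cyclooxygenase 2) stood at 102.9, 105.1 and 146.9 against 434.6, 333.8 and 328.5, 3.09-fold higher, Pla2g4a, which releases arachidonic acid, was 1.56-fold higher and Ptges, a prostaglandin E synthase, 1.97-fold lower. Of 22 genes 9 were lower and 4 higher, with a median of -0.08.

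**Figure D3:**
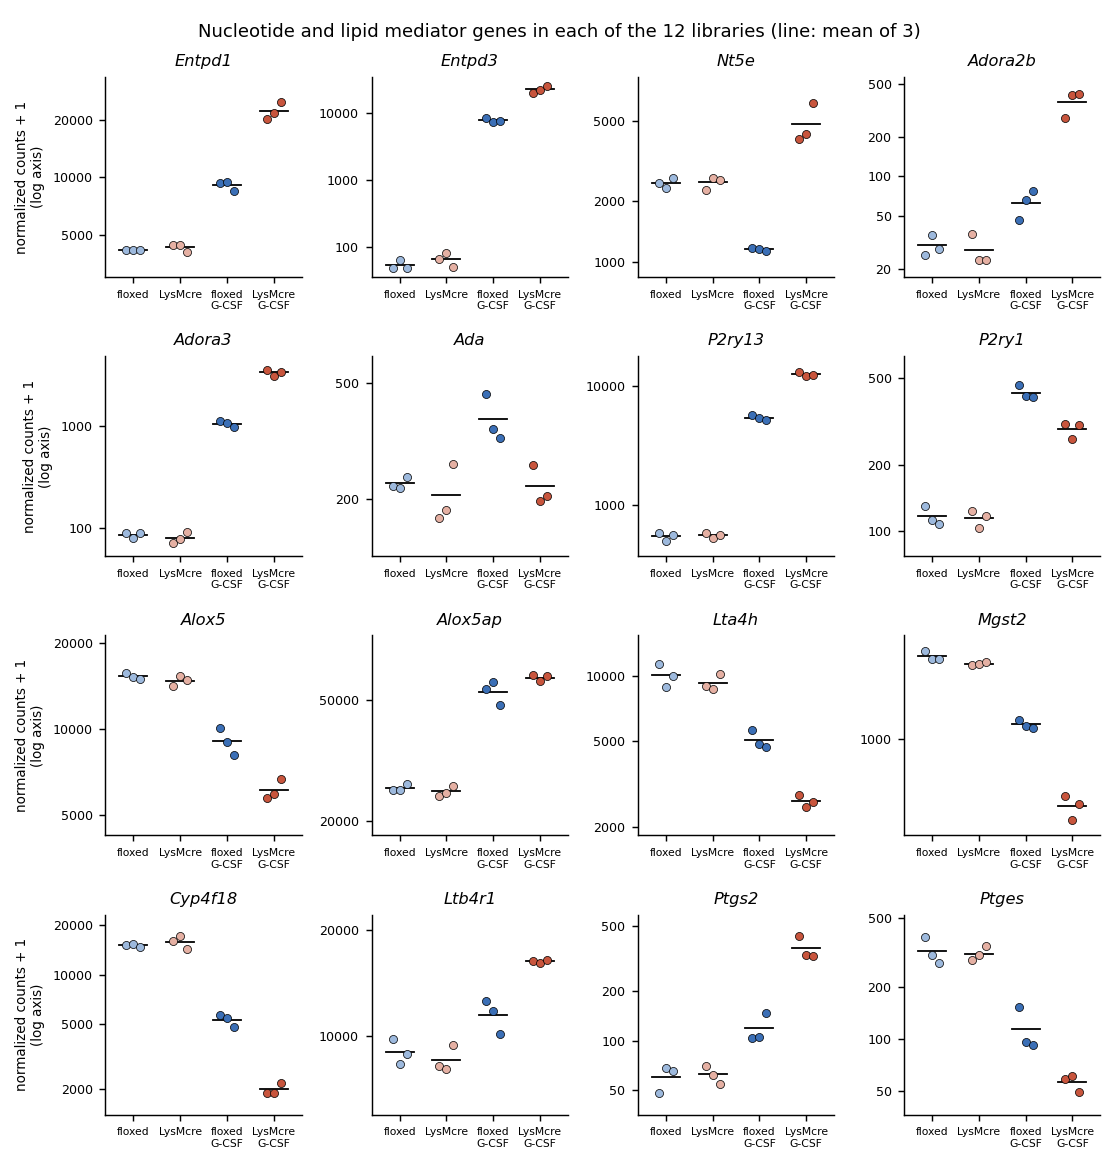
Level of 16 genes of extracellular nucleotides, adenosine, leukotrienes and prostaglandins in each of the 12 libraries, in normalized counts plus 1 on log axes; points are libraries and lines are means of 3. Nt5e with G-CSF lies at 1135 to 1173 in floxed and at 4031 to 6074 in LysMcre-labelled libraries, whereas Mgst2 lies at 1247 to 1452 and 219.4 to 342.1.

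Sphingosine 1-phosphate and ceramide genes had 4 of 25 higher and 6 lower, near the 36.0% of all genes called. Sphk1 (chromosome 11, 116530925 to 116536674), the kinase that makes sphingosine 1-phosphate, stood at 66.08, 49.03 and 51.78 against 594.1, 606.2 and 648.5, 11.0-fold higher, and Sgpl1, the lyase that destroys it, at 6543, 6800 and 6546 against 12907, 12160 and 12705, 1.90-fold higher. Both enzymes separated the groups. The receptor S1pr4 was 1.82-fold lower.

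Of 17 arginine, nitric oxide and polyamine genes 7 were higher and 2 lower (7 and 4 at equal totals). Nos2, the inducible nitric oxide synthase, stood at 1846, 1639 and 1817 in floxed and at 6156, 8533 and 8608 in LysMcre-labelled libraries, 4.35-fold higher, from under 5 normalized counts on average without G-CSF. Arg2 was 1.27-fold higher, and Arg1 stood at only 2.167, 9.631 and 14.12 against 53.16, 31.84 and 28.99. Odc1, the first enzyme of polyamine synthesis, was 1.78-fold and the spermine oxidase Smox 1.65-fold higher. Among iron genes 9 of 20 were higher and 4 lower. Beside Fth1, the zinc and iron importer Slc39a14 stood at 231.8, 194.4 and 186.4 against 707.3, 615.7 and 679.6 and transferrin (Trf) at 535.2, 624.3 and 525.4 against 1563, 1644 and 1973. Transferrin and Slc39a14 were each over 3-fold higher without overlap. The iron exporter ferroportin (Slc40a1) was 1.33-fold lower, and the transferrin receptor Tfrc did not pass (log2 0.03).

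Of 21 amino acid transport, synthesis and stress genes 12 were higher and 1 lower, with a median of 0.41. Slc7a11, the cystine importer, stood at 4582, 5064 and 5267 in floxed and at 13533, 15849 and 17483 in LysMcre-labelled libraries. Its heavy chain Slc3a2 stood at 3451, 3323 and 3260 against 9667, 9908 and 10369 (adjusted p = 1.9e-10). The leucine transporter Slc7a5, another partner of Slc3a2, stood at 4757, 4028 and 4037 against 9582, 10452 and 10653. All 3 separated the groups. Aldh18a1, of proline synthesis, was 2.18-fold and Asns, asparagine synthetase, 1.53-fold higher. Psat1, of serine synthesis, and the stress-induced Sesn2 were higher by 0.47 and 0.48 on the log2 scale. Chac1, which degrades glutathione, was the 1 lower member (1.54-fold), and Trib3, with a log2 difference of -0.01, and the stress factor Atf4, with 0.07, did not pass. Of 20 tRNA synthetases 11 were higher and 1 lower (6 and 1 at equal totals), by small amounts: Aars reached 1.51-fold and Dars was 1.49-fold lower.

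Lysosome genes were higher in 19 of 47 and lower in 10, with a median of 0.10; at equal totals 12 were higher and 15 lower and the median was -0.02. Cathepsin L (Ctsl) stood at 1595, 1748 and 1783 against 4870, 4629 and 4885, and Atp6v0a1, a proton pump subunit, at 18544, 16507 and 16412 against 38020, 37656 and 39251. Cathepsin B (Ctsb) was 1.96-fold higher. The hydrolases Man2b1 and Galc were 2.03-fold and 2.04-fold lower. For all of these genes the libraries of one group lay outside the range of the other. Of 37 autophagy genes 8 were higher and 12 lower (5 and 16 at equal totals), none by 2-fold; Map1lc3a was 1.67-fold higher and Atg4a 1.67-fold lower.

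**Figure D4:**
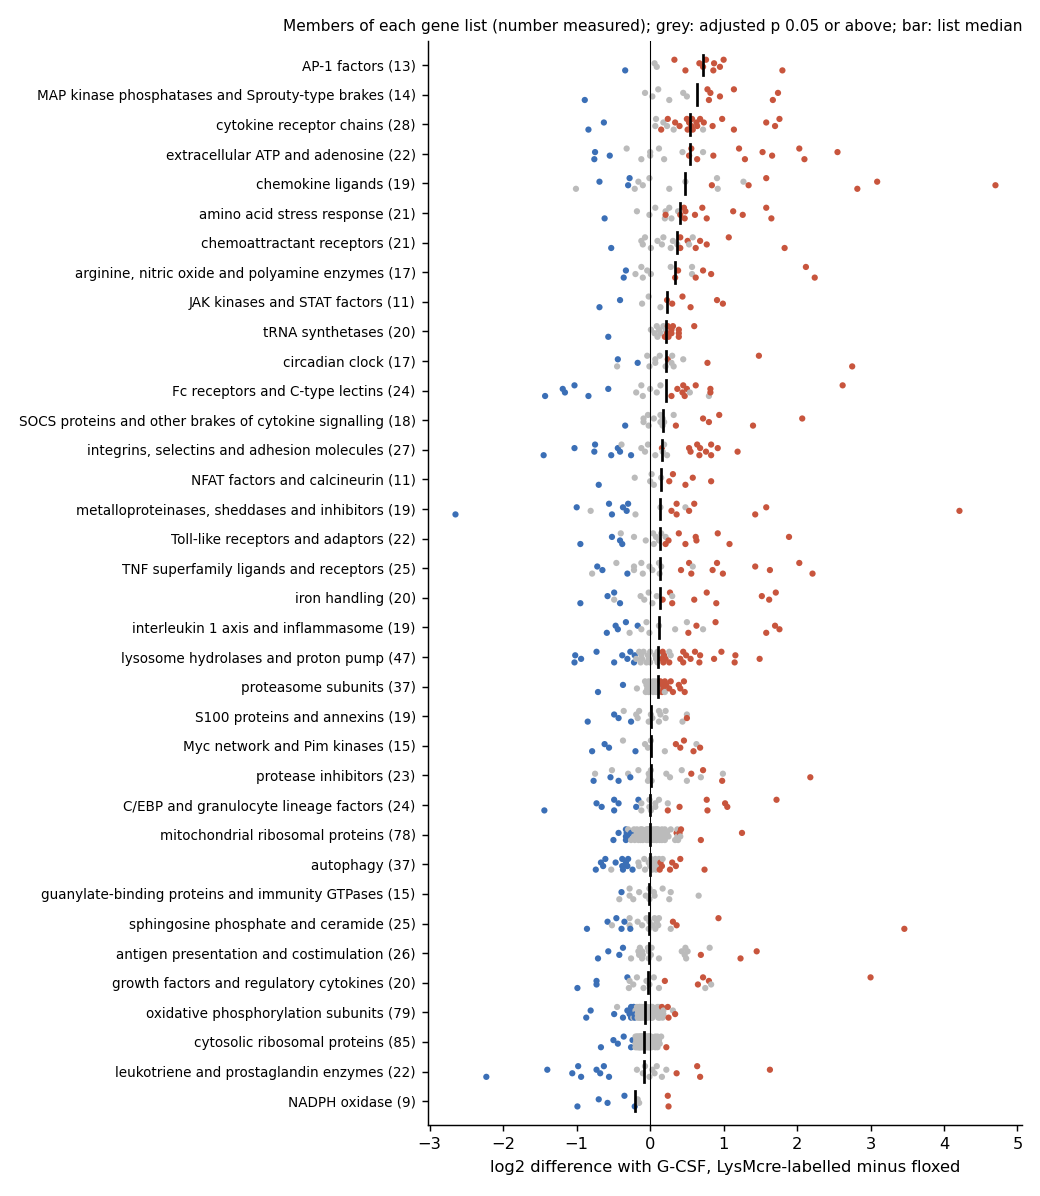
Log2 difference with G-CSF, LysMcre-labelled minus floxed, of each measured member of the gene lists; red and blue points passed an adjusted p of 0.05, grey points did not, and black bars are list medians. Among the lists drawn, which leave out the cell type markers, medians range from -0.21 for NADPH oxidase genes to 0.72 for AP-1 factors, beside -0.01 for all genes tested.

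Housekeeping machinery moved little. Of 85 cytosolic ribosomal protein genes 1 was higher and 6 lower (median -0.08), of 78 mitochondrial ones 5 and 8, and of 79 subunits of oxidative phosphorylation 4 and 16 (median -0.07); at equal totals the calls were 0 and 23, 4 and 16, and 1 and 30. Exceptions within them were Mrpl52, at 436.6, 467.5 and 451 against 1069, 1113 and 1046, and Cox7a2l, 1.83-fold lower. Of 37 proteasome genes 13 were higher and 2 lower, each by less than 1.5-fold apart from Psmb9, with a median of 0.10; at equal totals 6 were higher and 5 lower and the median was -0.02. Of 15 guanylate-binding and related immunity GTPases 1 passed, Gbp9 at 1.31-fold lower (lost under 10 of 22 alternatives, among them without any 1 library with G-CSF other than floxed replicate 2; adjusted p up to 0.151), and the abundant S100a8 and S100a9 did not pass (adjusted p = 0.155 and 0.18).

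Markers of the labelled cell type were abundant, and granule transcripts among them were lower. S100a8 stood at 436841 to 531803 normalized counts in floxed and at 523318 to 596672 in LysMcre-labelled libraries with G-CSF. The gate's own genes differed little: Ly6g stood at 6505, 7868 and 6618 against 9226, 9248 and 9188, 1.32-fold higher, and Itgam (CD11b) at 55167, 49700 and 48577 against 41044, 43147 and 43934, 1.20-fold lower. Ly6g lost its call after quantile normalization (adjusted p = 0.0792) and Itgam without floxed replicate 1 or LysMcre-labelled replicate 1 (log2 -0.20 and -0.23). Camp, the cathelicidin of secondary granules, stood at 21827, 18774 and 16079 against 10843, 7646 and 8331, 2.12-fold lower. Of the 13 neutrophil markers 2 were higher and 7 lower (Retnlg, Camp, Ltf, Ngp, Mmp8, Mmp9 and Itgam), while their summed level overlapped, at 1842616 to 2129807 in floxed and 1932002 to 2125950 in LysMcre-labelled libraries. Of 7 markers of granulocyte precursors Cebpe and Fcnb were lower and the primary granule genes Mpo, Elane, Prtn3 and Ctsg did not pass, at -0.28, -0.23, -0.24 and -0.12; the list's summed level was 12683 to 16622 against 10555 to 12425. In sorted cells measured in bulk, fewer cells of a kind and less RNA per cell cannot be told apart.

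Transcripts of other cells were also present, at levels that varied widely between the cell types, and their part in the results above was not tested. Of 9 B cell markers 2 were higher (1 at equal totals, 0 with DESeq2), both antibody genes: Jchain at 98.58, 536.7 and 718.4 against 1667, 1162 and 1117, and Ighm at 3772, 5533 and 6413 against 14076, 6512 and 7663. Jchain lost its call without floxed replicate 1 or LysMcre-labelled replicate 1 (log2 1.06 and 1.76), and Ighm at equal totals (0.68) and without floxed replicate 1 or 2 or LysMcre-labelled replicate 1 (0.58, 0.85 and 0.47). The summed B cell level was 7127 to 11344 in floxed and 11450 to 18695 in LysMcre-labelled libraries. Monocyte markers summed to 16815 to 21107 against 14264 to 17634, and 1 of 10, Ly6c2, was lower (2.16-fold). Of 7 T and NK cell markers Nkg7 and Cd3d were lower (lost without any of 4 single libraries with G-CSF, adjusted p up to 0.128 and 0.103), with sums of 250.2 to 286.2 against 219 to 265.4. Eosinophil, basophil and mast cell markers summed to 2729 to 3499 against 2885 to 2985, and none of 8 passed; none of 6 erythroid and of 7 platelet markers passed either, with sums of 205.7 to 318.2 against 175.7 to 213.5 and 577 to 1044 against 705.3 to 977.8. One of 5 dendritic cell markers, Clec9a, was lower, though not without LysMcre-labelled replicate 2 (adjusted p = 0.0809; sums 446.3 to 477.4 against 393.9 to 458.4). Progenitor markers summed to 4793 to 5460 against 7984 to 8357, with Kit 2.10-fold and Cd34 1.31-fold higher and Erg and Myb lower; Cd34 lost its call under 10 of 22 alternatives (adjusted p up to 0.206) and Myb without floxed replicate 3 or LysMcre-labelled replicate 1 (adjusted p up to 0.0626). Of 7 stroma and endothelium markers 2 were higher, Col1a1 and Pecam1, and 5 did not pass, with a median log2 difference of -0.04. Their sums were 818.6 to 978.2 against 1414 to 1667, and they include Pecam1, which is also on the list of adhesion genes above. Of the markers measured, none was at 0 in any of the 6 libraries.

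Without G-CSF the same genotype labels differed in 16 genes (0.115% of those tested), and 465 had an unadjusted p under 0.05. Of the 16, 13 also passed with G-CSF. Apart from Lyz2 and Lyz1 they included Dynlt1b and Tmem181b-ps, lower both without (log2 -1.51 and -1.48) and with G-CSF (-1.61 and -1.69), and Nfatc1, Steap4, Nos2, Wdfy1 and the aryl hydrocarbon receptor Ahr, higher in both. Without G-CSF Nos2 stood on average near the worth of 3 reads, so its difference there depends on the added count of 1. Nnt, a mitochondrial transhydrogenase, was higher without G-CSF (0.77) and did not pass with it (0.06); these genes were chosen after their values were seen. The genotype difference itself differed with and without G-CSF, by the interaction term of the same model, for 3112 genes (22.4%), 1513 positive and 1599 negative. Of the 5013 genes called with G-CSF 3059 were among them. Since that term is built partly from the same libraries, this count is not independent of the calls above. In the untreated libraries Mmp19 stood at 59.68, 67.67 and 44.23 in floxed and at 76.77, 71.34 and 56.64 in LysMcre-labelled libraries, and Cxcl3 at 6.395, 5.14 and 8.47 against 7.362, 9.455 and 8.356. The ranges overlapped for both genes, and neither passed without G-CSF.

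**Figure D5:**
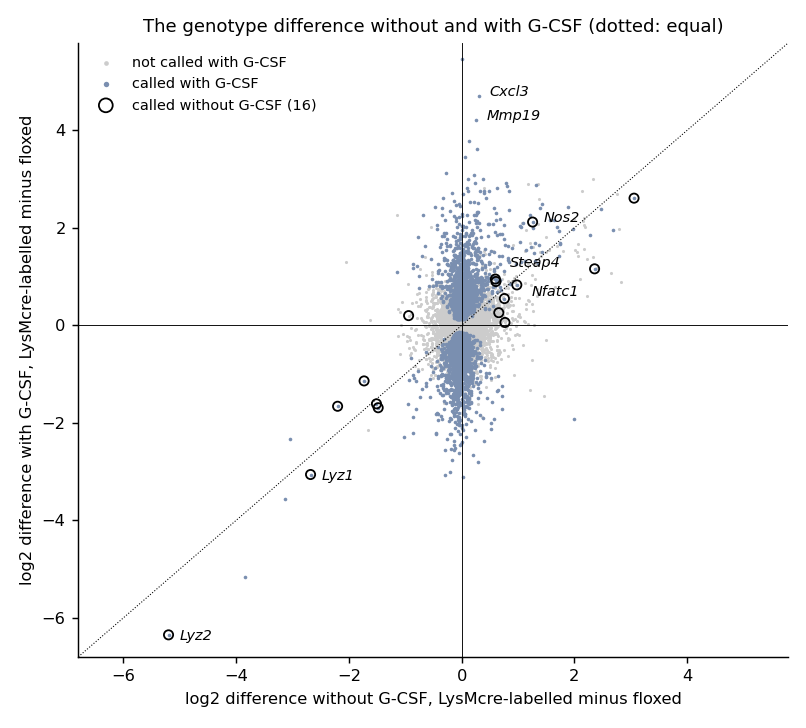
Log2 difference between the genotype labels without G-CSF (horizontal) and with G-CSF (vertical) for 13915 genes; the 2 axes share no library, and circles mark the 16 genes called without G-CSF. Most genes called with G-CSF lie near 0 on the horizontal axis, while Lyz2 and Lyz1 are low on both.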

How the data were processed

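Sorted neutrophils were sequenced as bulk RNA in 12 libraries, 3 per group. The deposited table gives a signal per gene: counts that the authors divided by 1 size factor per library, as its values show, since 100.0% came out as whole reads within 0.01 read and recomputed size factors differed by at most 5.7e-10. Which aligner and counter made the counts is not given in the sources used here. Reads were placed on mm10, per the submitters' processing notes. Of 13935 rows 13915 had a mean of at least 10 and were tested; 2 columns without a sample were left out and 17 rows carry date names in place of symbols. Coordinates were matched by symbol to the GENCODE M21 annotation for 13513 rows. Differences were tested on log2(value + 1) with limma 3.58.1 in R 4.3.3 (trended prior, 4 groups, two-sided, Benjamini-Hochberg adjustment, threshold 0.05), checked on simulated data. Alternatives were edgeR 4.0.16 and DESeq2 1.42.0 on recovered reads, equal totals, quantile normalization, a pseudocount of 5, other filters, only the 6 libraries with G-CSF, a prior without a trend, a replicate block and leaving out each library. Genes were named by rule: Socs3 and Lyz2, the largest rises and falls with no overlap and a mean of at least 50, the largest differences in counts, and the leading members of each list; 55 named genes lie outside it and were chosen after their values were seen, and some genes that the rule picks are not reported here. Rankings by size left out predicted genes, pseudogenes, microRNAs, small nucleolar RNAs, mitochondrial genes, antibody and T cell receptor segments and date names. The members and lists were chosen with earlier results of these data known. Depth was 19495754 to 26472118 reads.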

Additional observations from a re-analysis of the deposited data

Results flagged for a closer look

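The genotype difference changed with G-CSF, by the interaction term of the limma model, for 3112 genes. Large positive terms were 4.39 for Cxcl3, 3.95 for Mmp19, 3.64 for Kif1a, 3.41 for Pla1a and 3.39 for Sphk1 on the log2 scale. Large negative terms were -2.84 for Mmp23, -2.78 for RP24-325N9.4, -2.57 for Aplnr, -2.42 for Lhx1 and -2.42 for Sstr4. Apart from Lhx1, the genes with negative terms stood under 5 normalized counts in each LysMcre-labelled library with G-CSF, near the worth of 3 reads; their fitted terms depend on the added count of 1 and are neither fold changes nor bounds. The same holds for the untreated side of Kif1a, Pla1a, Sphk1 and Cxcl3, which stood under 10 normalized counts in every library without G-CSF.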

How the results depend on the processing

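With G-CSF 4539 to 5471 genes passed over the alternatives that kept all libraries of the contrast, and 4285 to 5030 when 1 of the 12 libraries was left out. At equal totals 1542 genes were higher. Without G-CSF the count was 9 with a prior without a trend, 28 with DESeq2 and 9 to 21 when 1 library was left out, 9 without floxed untreated replicate 1 and 10 without LysMcre-labelled untreated replicate 1. The interaction passed for 2685 to 3890 genes, and for 2669 to 3142 with 1 library left out. No label ties same-numbered libraries; correlations of their deviations were -0.234, -0.056 and -0.207 between the genotypes with G-CSF and 0.445, 0.353 and 0.063 between floxed libraries without and with it. The numbers were not used as pairs, and a replicate block gave 4892, 16 and 2967 calls. Of 221 called genes named in the text 198 lost no call under the alternatives in which they were tested. These were 22 for most genes and 21 for Fam19a3, Pla1a, Arg1 and Cxcl1. Where a lost call is given for a gene, the alternatives named are not always all of them. Calls gained under an alternative are not listed by gene, so a gene given as not passed can pass under another setting. Genes that had not passed changed sign near 0, and the cause was not tested. At equal totals the log2 differences were -0.04 for Csf3r, -0.07 for Socs6, -0.01 for Dusp6, -0.05 for Cebpd and Spi1, -0.02 for Fpr1, -0.11 for Fpr2 and H2-D1, -0.09 for Tfrc, -0.04 for Atf4 and -0.06 for Nnt. After quantile normalization they were -0.17 for Csf3r, -0.03 for Cebpd, -0.09 for Spi1 and H2-K1, -0.20 for Fpr2, -0.07 for C5ar1, -0.10 for H2-D1, -0.01 for Alox5ap and 0.02 for Trib3, and with edgeR 0.01 for Vegfa and Trib3. With 1 library left out the ranges were -0.06 to 0.03 for Stat5b, -0.01 to 0.47 for Socs2, -0.04 to 0.17 for Socs6, -0.01 to 0.20 for Dusp6, -0.01 to 0.13 for Cebpd and Spi1, -0.21 to 0.13 for Arntl, -0.02 to 0.04 for Fpr2, -0.03 to 0.09 for H2-D1, -0.08 to 0.07 for Vegfa, -0.28 to 0.36 for Adora2a, -0.08 to 0.04 for Trib3, -0.37 to 0.04 for Ctsg and -0.07 to 0.26 for Nnt. With G-CSF 3 reads were worth 2.63 to 3.54 normalized counts, which limits genes near that level.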
